A study of Arabidopsis thaliana with 12 samples.

Results

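The KNOX genes of Arabidopsis thaliana encode homeodomain proteins of the TALE superclass, which fall into class I (STM, KNAT1, KNAT2 and KNAT6) and class II (KNAT3, KNAT4, KNAT5 and KNAT7). The 8 genes were taken by their locus identifiers from the RefSeq annotation of assembly TAIR10.1, which held 27444 protein-coding genes on chromosomes 1 to 5. For each, the Tn5 hypersensitive sites (THSs, regions called as open chromatin by ATAC-seq) were collected over the gene, the 5 kb upstream of its transcription start site (TSS) and the 1 kb downstream of its end. These windows held 34 of the 23226 THSs in the list, 18 at class I and 16 at class II genes. KNATM, a KNOX protein without a homeodomain, was kept with the interacting proteins.

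Class I KNOX proteins keep cells of the shoot meristem undifferentiated. STM is needed to form and maintain the shoot apical meristem, KNAT1 (also named BREVIPEDICELLUS) shapes internodes and pedicels, and KNAT6 and KNAT2 act at organ boundaries and in the inflorescence. Class I genes are silent in developing leaves, where the AS1 and AS2 proteins and Polycomb group (PcG) proteins hold them off, and they are classical targets of the PcG mark H3K27me3. Class II genes are transcribed broadly, and their products act in differentiating tissue: KNAT3, KNAT4 and KNAT5 in leaf and root development, and KNAT7 in secondary wall formation. KNOX proteins of both classes bind DNA with partners of the BELL family, the other branch of the TALE superclass.

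ATAC-seq, in which the transposase Tn5 cuts and tags open DNA, was made on nuclei of whole seedlings 10 days after germination, all in the Col-0 background and grown on MS agar with sucrose at 22 °C and 16 h light. The 12 samples were 2 replicates each of wild type (WT), the atbmi1abc triple mutant (bmi1abc below) and the ring1ab double mutant (subunits of PcG complex PRC1), the clf28/swn7 double mutant (clf28swn7 below, the PRC2 methyltransferases CLF and SWN), emf1-2 and lhp1 (PcG-associated proteins). In bmi1abc, clf28swn7 and emf1-2 the shoot does not pass from embryonic to vegetative growth, so these seedlings differ from WT in their organs too, and ring1ab is a weak mutant. The list merges all 6 genotypes and has no column for genotype, replicate, read number or signal. A THS therefore says that a site was called in at least 1 genotype, and the values below have no replicate error, give no level of any gene and allow no comparison of WT with a mutant. Seedling marker genes could not be checked, nor was the depth behind a call known.

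The 8 genes lie on 3 chromosomes (TAIR10.1). STM (AT1G62360) lies at chr1:23058582-23062063 on the minus strand, KNAT1 (AT4G08150) at chr4:5147699-5151159 on the minus strand, KNAT2 (AT1G70510) at chr1:26576486-26582879 on the plus strand and KNAT6 (AT1G23380) at chr1:8297241-8302651 on the minus strand. The class II genes are all on the plus strand, KNAT3 (AT5G25220) at chr5:8735944-8738601, KNAT4 (AT5G11060) at chr5:3509833-3513741, KNAT5 (AT4G32040) at chr4:15493989-15496381 and KNAT7 (AT1G62990) at chr1:23337167-23340692. The split into classes was plain in the proteins, translated here from the annotated coding sequences. Identity was 45.5% to 76.1% within class I (median 49.3%, 6 pairs), 62.6% to 86.9% within class II (median 69.3%, 6 pairs) and 31.0% to 36.4% between the classes (16 pairs). The closest pairs were KNAT2 with KNAT6 in class I and KNAT3 with KNAT4 in class II.

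The sequences that follow are those on which the layout of open sites turned, read from the genome and printed 5′ to 3′ along the strand of the gene. The first set shows THSs inside introns, which were seen at STM, KNAT2 and KNAT6 and at no class II gene. Capitals mark the G-box CACGTG, bound by bZIP and bHLH factors, and the auxin response element TGTCTC, either read on both strands, and GA repeats in them stay in lower case. The STM site is whole (chr1:23059152-23059266), and 300 bp of each of the others is given, at chr1:26580521-26580820 for KNAT2 and at chr1:8298924-8299223 and chr1:8298197-8298496 for KNAT6.
STM intron: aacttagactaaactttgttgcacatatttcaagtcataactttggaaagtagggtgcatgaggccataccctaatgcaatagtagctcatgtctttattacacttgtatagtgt
KNAT2 intron: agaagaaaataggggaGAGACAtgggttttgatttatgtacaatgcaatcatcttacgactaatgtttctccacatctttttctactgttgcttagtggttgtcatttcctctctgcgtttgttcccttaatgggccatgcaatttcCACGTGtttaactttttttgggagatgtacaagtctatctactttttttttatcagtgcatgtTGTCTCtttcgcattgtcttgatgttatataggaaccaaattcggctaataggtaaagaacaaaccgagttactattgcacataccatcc
KNAT6 intron, upper site: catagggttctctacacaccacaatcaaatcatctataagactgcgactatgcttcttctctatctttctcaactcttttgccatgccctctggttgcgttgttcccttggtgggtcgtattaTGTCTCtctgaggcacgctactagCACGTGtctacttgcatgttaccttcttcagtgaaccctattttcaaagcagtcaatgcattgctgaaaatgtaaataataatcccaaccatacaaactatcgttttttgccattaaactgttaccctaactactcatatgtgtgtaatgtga
KNAT6 intron, lower site: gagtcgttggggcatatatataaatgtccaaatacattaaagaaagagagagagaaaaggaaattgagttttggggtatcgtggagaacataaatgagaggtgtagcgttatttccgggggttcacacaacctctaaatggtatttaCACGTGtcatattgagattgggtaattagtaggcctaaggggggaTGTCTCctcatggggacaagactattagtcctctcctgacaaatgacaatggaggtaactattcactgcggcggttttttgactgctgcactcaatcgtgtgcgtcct

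The second set shows upstream sites, with capitals on the GA repeat GAGAGA, the motif of BPC factors, which recruit PRC2 in this species, and on the G-box. For KNAT1 it is 300 bp of the longest THS upstream of a class I gene (chr4:5155558-5155857), and for STM the THS farthest from the TSS (chr1:23065873-23066041). For KNAT3 it is 300 bp of the longest upstream class II THS clear of UTRs (chr5:8734953-8735252) and the THS with the class II G-box (chr5:8733706-8733872).
KNAT1 distal: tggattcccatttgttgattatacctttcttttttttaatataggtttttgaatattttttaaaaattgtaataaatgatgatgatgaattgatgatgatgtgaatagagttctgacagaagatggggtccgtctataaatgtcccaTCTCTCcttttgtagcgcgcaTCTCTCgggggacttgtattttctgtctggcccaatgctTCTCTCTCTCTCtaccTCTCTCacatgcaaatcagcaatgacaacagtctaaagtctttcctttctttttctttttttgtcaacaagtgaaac
STM distal: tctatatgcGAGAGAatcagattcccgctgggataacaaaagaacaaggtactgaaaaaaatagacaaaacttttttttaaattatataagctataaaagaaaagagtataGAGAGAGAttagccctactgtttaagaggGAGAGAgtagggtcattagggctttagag
KNAT3 proximal: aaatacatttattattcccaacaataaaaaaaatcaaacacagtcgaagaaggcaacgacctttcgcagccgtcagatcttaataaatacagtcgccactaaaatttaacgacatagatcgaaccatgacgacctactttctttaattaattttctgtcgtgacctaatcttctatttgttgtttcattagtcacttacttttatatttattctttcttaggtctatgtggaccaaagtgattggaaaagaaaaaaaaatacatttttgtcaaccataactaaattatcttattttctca
KNAT3 distal: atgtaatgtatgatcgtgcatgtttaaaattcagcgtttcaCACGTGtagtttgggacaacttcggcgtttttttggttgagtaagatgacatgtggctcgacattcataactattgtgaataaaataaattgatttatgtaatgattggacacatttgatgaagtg

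The third set gives the 250 bases before the TSS of KNAT1 (chr4:5151160-5151409) and KNAT6 (chr1:8302652-8302901), the KNOX genes with a THS over the TSS itself, marked in the same way.
KNAT1 promoter: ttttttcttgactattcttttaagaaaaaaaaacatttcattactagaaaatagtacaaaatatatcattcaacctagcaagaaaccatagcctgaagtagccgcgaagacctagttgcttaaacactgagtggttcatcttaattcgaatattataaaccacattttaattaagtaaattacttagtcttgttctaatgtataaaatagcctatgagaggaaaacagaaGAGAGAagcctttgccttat
KNAT6 promoter: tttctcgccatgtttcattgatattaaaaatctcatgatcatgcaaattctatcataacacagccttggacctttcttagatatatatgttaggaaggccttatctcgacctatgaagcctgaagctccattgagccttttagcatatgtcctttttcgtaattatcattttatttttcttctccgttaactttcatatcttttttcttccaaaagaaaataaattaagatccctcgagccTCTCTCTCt

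All 8 genes had THSs, and each had more of its window inside them than the median gene. The number in the window was 5 at STM, 5 at KNAT1, 2 at KNAT2 and 6 at KNAT6. It was 6 at KNAT3, 4 at KNAT4, 3 at KNAT5 and 3 at KNAT7. The median over all protein-coding genes was 2 (quartiles 1 and 3), so KNAT2 alone was at the median and the other 7 were above it. Counting THSs of at least 200 bp left 8 in the class I and 10 in the class II windows. Having at least 1 THS in such a window is common (85.9% of all protein-coding genes). KNOX genes are longer than most genes and their windows wider, so the bases in THSs were also taken as a share of the window.

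KNAT1 had the highest share, with 1982 bp or 20.9% of its window in THSs, and 98.1% of protein-coding genes had a lower share. KNAT5 followed with 1509 bp (18%), KNAT3 with 1393 bp (16.1%) and KNAT6 with 1561 bp (13.7%). KNAT7 had 1001 bp (10.5%), STM 940 bp (9.91%), KNAT4 921 bp (9.29%) and KNAT2 1044 bp (8.42%). The order mixes the classes, and the lowest, KNAT2, still exceeded 64.6% of genes. The median share was 11.8% in class I and 13.3% in class II, against 6.04% over all genes (quartiles 2.59% and 10.5%).

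The amount of open sequence overlapped between the classes. The mean was 1382 bp per class I window (SD 484 over 4 genes) and 1206 bp per class II window (SD 289), a difference of 175.8 bp, smaller than the SD of 380 over the 8 genes. Leaving out KNAT1 turned the difference to -24.33 bp. It rose to 433.5 bp with the upstream window stopped at the first protein-coding gene and to 457.2 bp with only THSs nearest to the member's own TSS, both above that SD. Genes are not replicates, and no test was run.

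**Figure D1:**
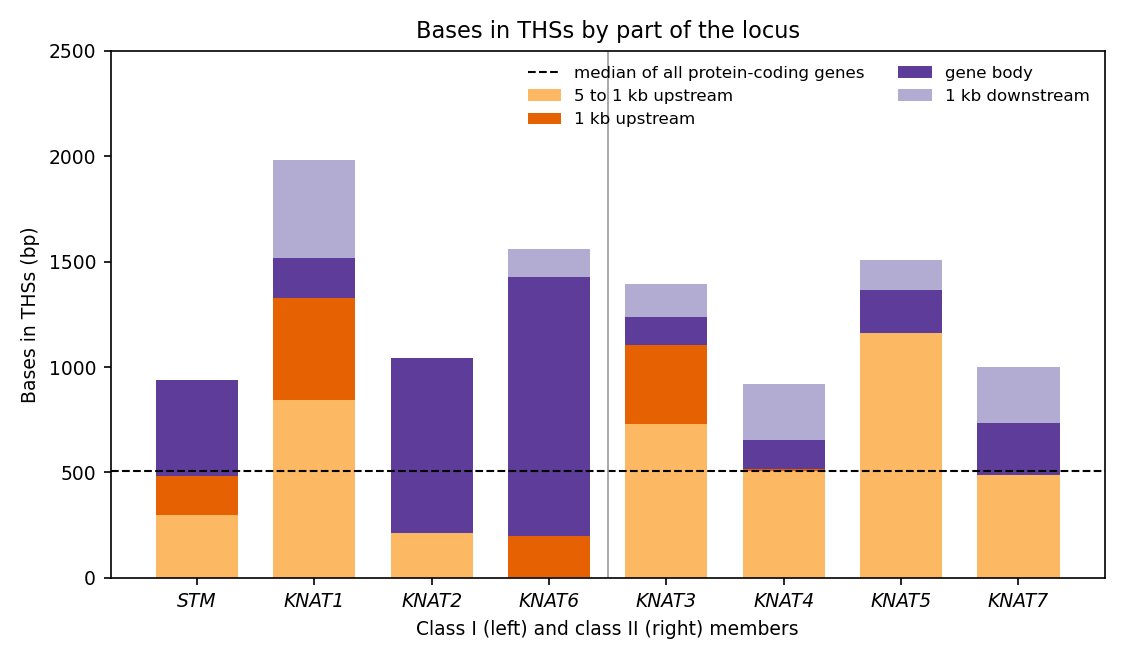
Bases in THSs (bp) in the window of each KNOX gene, stacked by position, with class I to the left and class II to the right of the grey line and the median of all protein-coding genes (507 bp) as a dashed line. All 8 genes lie above the dashed line. The gene body holds the most bases at STM, KNAT2 and KNAT6, and sequence 5 to 1 kb upstream the most at KNAT1 and at the 4 class II genes. The parts differ in width, and the bars are not scaled for it.

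The position of the open sequence varied from gene to gene. The gene body held the most at STM (455 of 940 bp), KNAT2 (832 of 1044 bp) and KNAT6 (1230 of 1561 bp), and the sequence 5 to 1 kb upstream at KNAT1 (845 of 1982 bp) and at every class II gene, from 486 of 1001 bp at KNAT7 to 1159 of 1509 bp at KNAT5. The distal upstream part and the gene bodies are wider than the 1 kb parts, so a lead in bases need not be a lead in density. At KNAT1, for example, the narrower 1 kb upstream held 484 bp. Pooled over class I, 21.6% of the 1 kb upstream and 14.4% of the gene bodies were in THSs, against 9.53% and 5.81% in class II and 14.3% and 3.86% over all genes. Pooled over class II, 18% of the sequence 5 to 1 kb upstream and 20.9% of the 1 kb downstream were covered, against 8.49% and 15% in class I and 6.76% and 7.9% over all genes. These shares pool 4 genes each, 1 gene can carry them, and no test was run. In the 1 kb upstream KNAT2 had 0 bp and KNAT1 484 of the 866 class I bases. KNAT5 alone gave 1159 of the 2882 class II bases in the distal upstream part, and KNAT6 1230 of the 2704 class I bases in gene bodies.

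**Figure D2:**
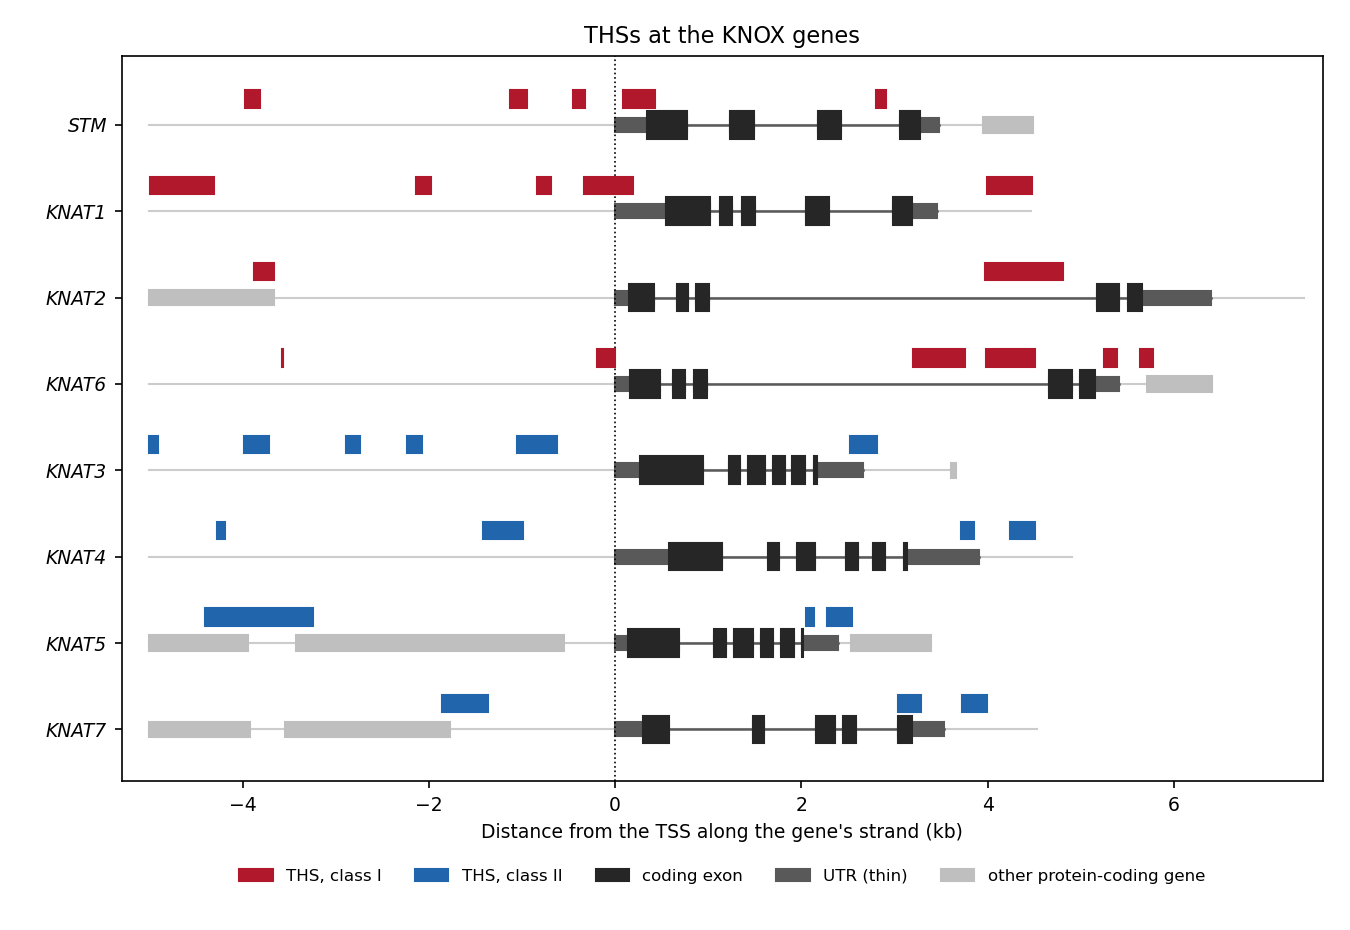
THSs (coloured bars) along each KNOX window, drawn to scale in kb from the TSS (dotted line) in the direction of transcription, over the gene model (thick black, coding exons; thin dark grey, UTRs) and neighbouring protein-coding genes (light grey). THSs lie over or within 500 bp of the TSS at STM, KNAT1 and KNAT6 and at no class II gene, and all 4 class II genes have a THS around the gene end.

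A THS over the TSS or the 1 kb before it was present at 3 of 4 class I genes (STM, KNAT1 and KNAT6) and 2 of 4 class II genes (KNAT3 and KNAT4), and at 47.6% of all protein-coding genes. The KNAT4 site reached this kilobase by 8 bp, and within 500 bp upstream no class II gene had a site. With THSs of at least 200 bp the order of the classes turned, to 1 of 4 in class I (KNAT1) against 2 of 4 in class II. A THS covered the TSS at KNAT1 and KNAT6, so in 2 of 4 class I and 0 of 4 class II genes (26.1% of all genes). The KNAT6 THS reached only 3 bp into the gene. Within 500 bp of the TSS, 3 of 4 class I genes and 0 of 4 class II genes had a THS, with 44.5% of all genes. With 4 genes a class these shares stand on both sides of the background, and the 500 bp limit was chosen after the positions had been seen.

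A THS covered the TSS at KNAT1 and KNAT6, which was counted as a distance of 0 bp here and over all genes. At STM the nearest THS edge lay 85 bp downstream of the TSS. At KNAT2 the nearest was 3665 bp upstream, the longest distance among the 8 genes. In class II it was 628 bp upstream at KNAT3, 993 bp upstream at KNAT4, 1370 bp upstream at KNAT7 and 2047 bp downstream, past the coding sequence, at KNAT5. The class II distances fall between those of the TSS-proximal class I genes and that of KNAT2, so the ranges of the classes overlap. The median was 42.5 bp in class I, 1182 bp in class II and 782 bp over all genes.

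**Figure D3:**
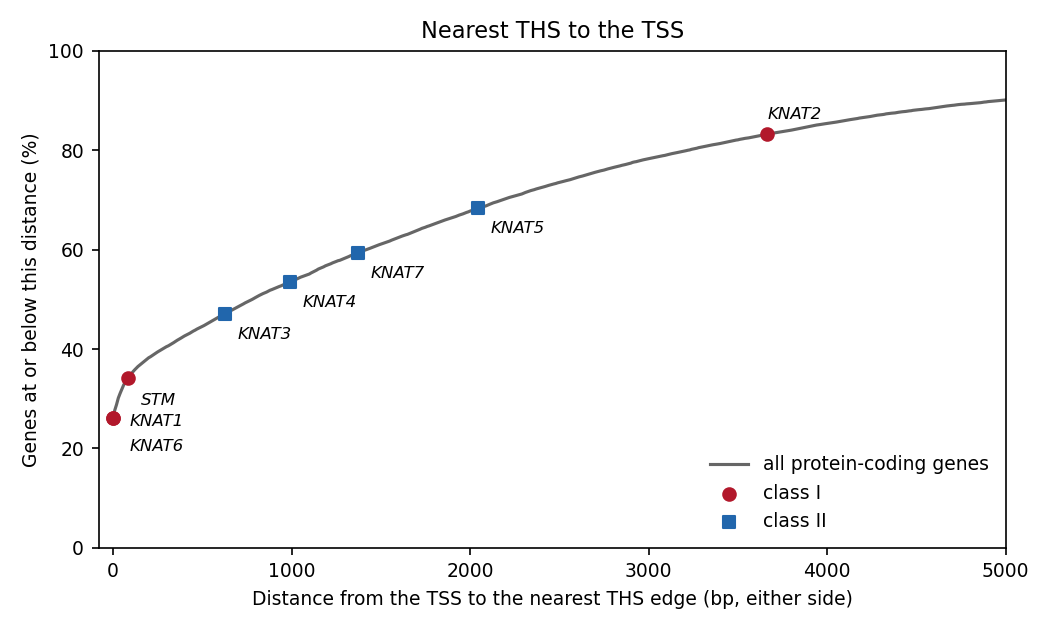
Cumulative share (%) of protein-coding genes (grey line) against the distance from the TSS to the nearest THS edge in bp, either side, with class I (red circles) and class II (blue squares) genes placed on the line. KNAT1 and KNAT6 share the point at 0 bp, which stands for a TSS inside a THS, and STM lies at 85 bp. The 4 class II genes lie between 628 and 2047 bp, and KNAT2 lies at 3665 bp.

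STM, the meristem gene, had 5 sites. The one nearest the TSS (chr1:23061639-23061978, 340 bp) began 85 bp into the gene and covered 256 bp of 5′ UTR and 84 bp of coding sequence. Sites of 130 bp, 186 bp and 169 bp followed upstream, starting 457 bp, 1127 bp and 3978 bp before the TSS. The fifth, of 115 bp, was in the third intron, 2797 bp into the gene, and it is the STM sequence printed above. It holds neither the G-box nor the auxin response element, and the nearest protein-coding TSS was that of AT1G62350, 2766 bp away. No other protein-coding gene lay in the 5 kb upstream.

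KNAT1 had the broadest sites of the class I upstream regions. A THS of 523 bp (chr4:5150973-5151495) ran from 336 bp before to 186 bp after the TSS, and a THS of 686 bp (chr4:5155467-5156152) lay between 4993 and 4308 bp upstream. Sites of 148 bp and 159 bp lay between them, and another of 486 bp began 535 bp past the gene end. As at STM, the 5 kb upstream held no other protein-coding gene, and for all 5 sites the nearest protein-coding TSS was that of KNAT1.

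KNAT6 had a THS of 196 bp over the 193 bp before the TSS, 2 THSs of 550 bp and 533 bp inside its longest intron, a THS of 144 bp in its 3′ UTR and a THS of 133 bp over the TSS of the downstream gene MENG. The nearest protein-coding TSS to the intron sites and the 3′ UTR site was also that of MENG, at 1960, 1200 and 320 bp. The remaining entry is 5 bp long, 3573 bp upstream. Regions of 5 bp or less were 23 of the 23226 in the list, and this entry was counted but is not described further. KNAT2, its closest relative, had no THS at the TSS. Of its 2 sites, that of 212 bp lay over the 3′ UTR of the upstream neighbour AT1G70505, and that of 832 bp was inside the longest KNAT2 intron, which leaves the intron site as the THS within the KNAT2 gene.

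THSs lying wholly within an intron were rare. They occurred at 3 of 4 class I genes and 0 of 4 class II genes, and at 1.97% of the 21743 protein-coding genes with introns. KNAT2 and KNAT6 each have an intron longer than 3 kb. Of the 35 protein-coding genes with an intron of 3 kb or more, KNAT2 and KNAT6 included, 37.1% had a THS inside any of their introns. The share with a THS inside the long intron itself was not counted. A link of the class I count to intron length was not tested. The longest STM intron is 690 bp. Any THS over the gene body was found at 4 of 4 genes of each class, against 44.3% of all genes and 55.9% of the genes at least as long as KNAT5, the shortest member. The intron count was made after the positions had been seen.

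The long introns of KNAT2 and KNAT6 stand at the same place in both genes and hold open sites at like positions. The KNAT2 intron (4162 bp, chr1:26577495-26581656) began 1009 bp and the KNAT6 intron (3676 bp, chr1:8297989-8301664) 987 bp after the TSS. THSs took up 832 bp (20%) of the former and 1083 bp (29.5%) of the latter, all in the part toward the 3′ end. They began 2963 bp and 2214 bp into the intron, and the last THS ended 367 bp and 152 bp before the next exon.

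Aligned with each other, these introns gave 4 blocks in the same order, which cover little of them. The longer blocks, of 347 columns (65.4% identical) and 224 columns (75.9%), lay in the first part of the intron where neither gene had a THS. The block with the highest identity, 37 columns at 86.5%, ended 12 bp before the KNAT2 THS and lay wholly within the upper KNAT6 THS, 124 bp from its edge. Its sequence in either gene, at chr1:26580410-26580446 in KNAT2 and chr1:8299292-8299326 in KNAT6, was:
KNAT2 block: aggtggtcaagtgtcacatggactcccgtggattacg
KNAT6 block: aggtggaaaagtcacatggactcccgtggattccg

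From the end of this block a G-box began 222 bp on in KNAT2 and 216 bp on in KNAT6, visible as CACGTG in the KNAT2 and upper KNAT6 intron sequences above. The best local match between the KNAT2 THS and the upper KNAT6 THS (24 columns, 87.5% identical) began 47 bp and 39 bp after the same block. The best match with the lower KNAT6 THS (42 columns, 81.0%) began 661 bp and 884 bp after it. A best match is returned for any pair of sequences, so no conclusion is drawn from these matches or from their order. None of the aligned blocks had bases in the KNAT2 THS, which was called as a single region. The KNAT2 THS and both KNAT6 intron THSs each held a G-box and a TGTCTC. Both motifs are common in THSs of such length. Of THSs within 10% of the length of the KNAT2, upper KNAT6 and lower KNAT6 site, 35.1%, 26.6% and 26.4% held a G-box and 41.5%, 28.3% and 27.3% a TGTCTC. The short matches were not tested. The last block (47 columns, 78.7%) lay past the KNAT2 THS and had 26 bp in the lower KNAT6 THS.

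**Figure D4:**
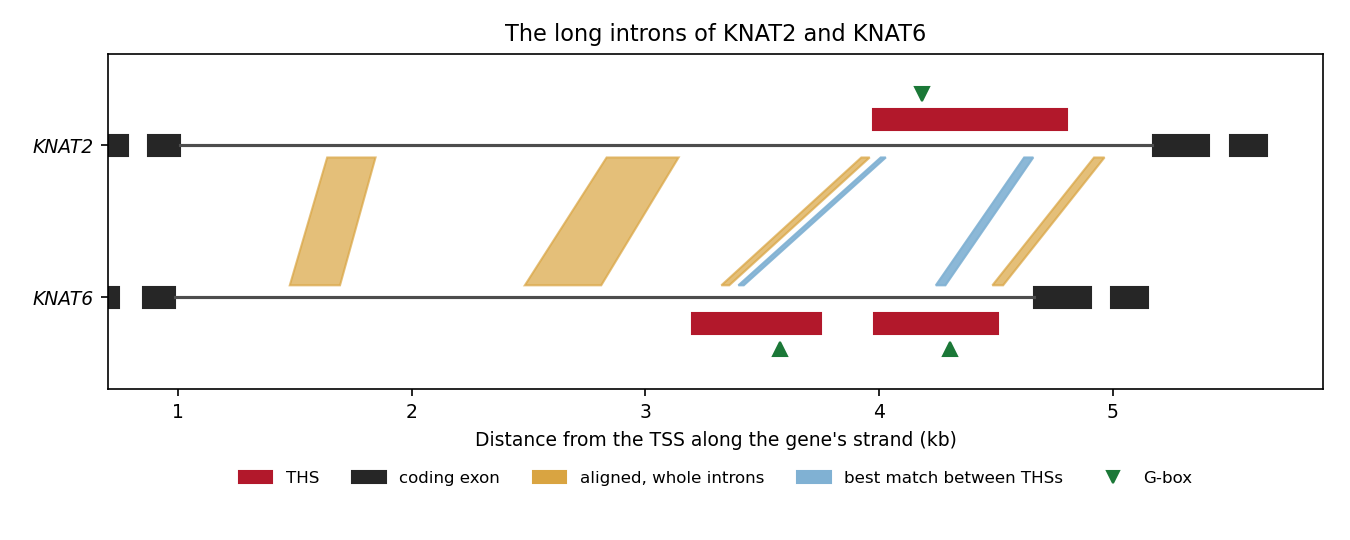
The long introns of KNAT2 (top) and KNAT6 (bottom) in kb from the TSS, with coding exons in black, THSs as red bars and G-boxes as green triangles. Bands join the 4 aligned blocks (gold) and the best matches between THSs (blue). The gold bands do not cross, and the 2 wide ones lie where neither intron has a THS. A best match is returned for any pair of sequences, so the blue bands mark positions only.

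No upstream site of a class II gene came within 500 bp of the TSS. KNAT3, which acts in root and leaf differentiation and in abscisic acid responses, had 5 upstream sites of 94 bp to 428 bp, the largest (chr5:8734889-8735316) from 1055 to 628 bp before the TSS, and no other protein-coding gene in the 5 kb upstream. KNAT4, its closest relative, had an upstream site of like length (423 bp, chr5:3508418-3508840) from 1415 to 993 bp before the TSS and another of 93 bp more than 4 kb upstream. The nearest protein-coding TSS to the site of 93 bp was that of MYB64. KNAT7 had a single upstream site of 486 bp, from 1855 to 1370 bp before the TSS, which ran into the 3′ UTR of the neighbour AT1G62981. KNAT5 had a single upstream site of 1159 bp, the longest of all 34, which overlapped the end of AT4G32020 and the TSS of AT4G32030, the gene next upstream of KNAT5.

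A THS 1 to 5 kb upstream was present at 4 of 4 genes of each class, and at 61.0% of all genes. In class I the KNAT6 call rests on the 5 bp entry and that of KNAT2 on the site in the 3′ UTR of AT1G70505. The distance to the neighbouring gene differs between the members. Upstream of the TSS, KNAT5 had 552 bp, KNAT7 1771 bp and KNAT2 3664 bp before the next protein-coding gene, and the other 5 genes had the whole 5 kb. For 12 of 18 class I THSs and 7 of 16 class II THSs the nearest protein-coding TSS was that of the KNOX gene itself. The same share was not taken over the windows of all genes, so neither number can be called high or low. Which gene a shared site belongs to was not tested.

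Around the gene end, defined as the last 500 bp or the 1 kb downstream, 4 of 4 class II genes and 2 of 4 class I genes (KNAT1 and KNAT6) had a THS, against 33.7% of all genes. At KNAT3 a site of 291 bp spanned the end of the gene, and at KNAT5 a site of 264 bp did so and reached the TSS of AT4G32050. KNAT5 also had 86 bp in its 3′ UTR. KNAT4 had 136 bp in its 3′ UTR and 269 bp downstream, and KNAT7 had 248 bp over its last intron, coding exon and 3′ UTR and 267 bp downstream. The KNAT6 site over MENG and that of KNAT5 over AT4G32050 are also TSS sites of those neighbours. For every class II site near a gene end, the nearest protein-coding TSS was that of another gene. These were AT5G25230 at KNAT3, AT5G11070 at KNAT4, AT4G32050 at KNAT5 and NRS/ER at KNAT7. For the KNAT6 sites it was MENG, and for the KNAT1 site KNAT1 itself. With THSs of at least 200 bp the class I count fell to 1 (KNAT1). This comparison, too, was chosen after the positions had been seen.

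Short motifs were searched on both strands in the THSs, namely the GA repeat, the telo-box, the TALE core, the G-box and the auxin response element, which can share bases with a GA repeat. GA repeats were denser in class I. GAGAGA occurred 32 times in class I sites (5.77 per kb, in 8 of 18 THSs and at all 4 genes) and 12 times in class II sites (2.48 per kb, in 5 of 16 THSs and at 3 genes), against 2.00 per kb and 27.3% of all THSs. These shares do not allow for THS length. Of THSs within 10% of the length of each site with the repeat, 17.5% to 52.6% held it for class I. For class II sites this was 26.9% to 65.1%. Sites without the repeat were not matched in this way, so these ranges cannot correct the counts of 8 of 18 and 5 of 16 for length. KNAT2 is counted through 1 copy in its 832 bp site, where the share was 52.6%. Overlapping repeats count more than once, and a few sites hold most of the class I number. The KNAT1 THS over the TSS held 10 and that 4993 bp upstream 7, the STM distal site 4 and the KNAT6 THS over the TSS 4. In class II, 7 of the 12 were in the KNAT5 site that covers the neighbouring genes.

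The KNAT1 repeats near the TSS crowd into the 5′ UTR. A stretch of 30 bp from 115 to 144 bp after the TSS (chr4:5151015-5151044) held 7 copies, most of them overlapping, shown in capitals:
KNAT1 GA site: TCTCTCTCTCTCTCTCttTCTCTCttcttc
Before the TSS, 20.6% of all promoters (250 bp) had at least 1 GAGAGA, KNAT1 had 1 and KNAT6 had 2, a number that 6.87% of promoters reach. The other 6 KNOX promoters had none in this stretch.

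The other motifs were sparse. The telo-box AAACCCTA, a second element known from PRC2 recruitment, occurred in 2 of 18 class I THSs (in the STM site past the TSS and the KNAT1 site past the gene end) and in 0 of 16 class II THSs, against 3.22% of all THSs. The G-box was in 4 of 18 class I and 1 of 16 class II THSs, 3 of the class I sites being those in the long introns, against 15.5% of all THSs. The higher shares among THSs of like length to the intron sites are given above. TGTCTC was in 3 of 18 and 2 of 16 THSs (17.4% of all THSs), and TGACAG, the core that TALE homeodomains bind, in 2 of 18 and 1 of 16 (9.24%). In the 250 bp before the TSS, KNAT4 had a G-box (6.49% of all promoters), and no member had AAACCCTA, TGACAG or TGTCTC there (4.49%, 5.86% and 10.9% of promoters).

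Among 28 genes that act with KNOX proteins, 20 had a THS over the TSS or 1 kb upstream, against the 47.6% of all genes given above. The BELL partners stood highest, with 11 of 13, BLH4 and BLH5 being without, and BEL1, an ovule identity factor, had 7 THSs in its window, more than any KNOX gene. Of 7 regulators of KNOX genes, AS1, AS2, BOP1, CUC1 and CUC2 had such a site and BOP2 and CUC3 did not. Of the proteins that bind KNOX proteins, OFP1 and OFP5 had it and OFP4 and KNATM did not. Of the hormone genes downstream of class I, the gibberellin genes GA20OX1 and GA2OX2 had it, and GA2OX4 and the cytokinin synthesis gene IPT7 did not.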

How the data were processed

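The authors trimmed the reads (Trimmomatic), mapped them with bowtie to TAIR10 without organelle genomes, removed duplicates (Picard) and regions of excessive coverage, called peaks with MACS2 in every replicate, kept for each genotype what both replicates shared, and then merged across the 6 genotypes. Versions are not given in the sources used here. The study also describes a later filter on low signal. The study reports fewer regions after that filter than this list holds, so the list was taken as the merge before it. The regions here may include some that the filter removed, and which ones was not tested. The deposited list gives each region's chromosome, start and end in bp, with no score, signal or count. A merge keeps a site open in any genotype, and intersection can leave short pieces. Positions were placed on RefSeq TAIR10.1, whose chromosome names and lengths hold every region of the list. A THS counted with an overlap of at least 1 bp, and a TSS is the outer 5′ end of a gene record. Proteins were aligned globally with Biopython 1.88 (BLOSUM62, gap penalties 11 and 1) and introns with BLAST+ 2.17.0 (e-value 0.001). The counting was tested on simulated regions. The members and lists were chosen with earlier results of these data known, and no test was run. The genes named are the 8 members, the owners of the nearest TSS and the pathway lists by their rule, with AT4G32020 and AT1G62981, which sites overlap, added after their positions were seen. Alternatives were THS midpoints, lengths of at least 200 bp, merging within 150 bp, other windows and each member left out.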

Additional observations from a re-analysis of the deposited data

How the results depend on the processing

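No paired analysis was possible because the list carries no replicate columns and no result comes from a test. Of 75 values under alternatives, 61 stayed within 1.5 times the main count or shifted by less than 380 bp, the SD over the 8 genes, and 14 moved. This tally is lenient. Leaving out a class II gene cannot change the class I count of THSs, nor the reverse, and such values are among those that stayed. The limit of 380 bp exceeds the main difference of 175.8 bp, so a change of its sign counted as within the limit. With THSs of at least 200 bp, class I windows held 8 THSs and class II windows 10, class I gene bodies 5 and class II gene bodies 3, and 1 class I gene had a THS over the TSS or 1 kb upstream and 1 near the gene end. With 2 kb upstream class II windows held 10 THSs, and with only THSs nearest to the member's own TSS they held 7. By midpoint, class II had 3 THSs over gene bodies and 1 gene with a THS over the TSS or 1 kb upstream, and with 500 bp upstream it had 0. Among alternatives chosen after seeing the data, within 1000 bp of the TSS 2 class II genes had a THS (KNAT3 and KNAT4), and with the last 250 bp or 500 bp downstream 1 class I gene did. The covered-bp difference ranged from 9.5 bp (at least 200 bp) to 457.2 bp (own TSS). Leaving out each gene in turn gave 12 to 18 THSs for class I, 10 to 16 for class II (10 without KNAT3), and differences from -24.33 bp (without KNAT1) to 323 bp (without STM). Sites under 200 bp were 10 of 18 in class I, 6 of 16 in class II and 8371 of the 23226 in the list. The depth behind a call is unknown, so a stretch without a THS was not called open and need not be closed.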
